A study of Arabidopsis thaliana with 4 samples.

Results

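PET111 is an enhancer trap line of Arabidopsis thaliana whose reporter is YFP, and its cells with a YFP transcript were set against its cells without one. Cell barcodes of the PET111 library were kept with at least 2000 UMIs (unique molecular identifiers, each standing for 1 captured transcript) and at most 10% of them from mitochondrial and plastid genes. Of the 9745 barcodes, 3516 were kept, among 41823 barcodes in all 4 libraries of the study. A kept cell was called YFP-positive with 1 or more YFP UMIs and YFP-negative with 0, which gave 121 YFP-positive and 3395 YFP-negative cells. Both groups come from the same root tips of the same line, taken 4 to 5 days after germination from plants grown on Murashige and Skoog medium under continuous light. The roots were turned into protoplasts with cell wall enzymes, and no sort by fluorescence is named in the labels. The other libraries come from the lines pWER:GFP, pCORTEX:GFP and pSCR:GFP. The labels give each line 1 library in a batch of its own, a mixture of root cell types, and name neither the insertion site of PET111 nor the cells it marks.

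An enhancer trap carries a reporter behind a minimal promoter, so that the reporter is read wherever enhancers near the insertion are active. The root cap covers the growing tip of the root. Its central cells, the columella, sense gravity through the settling of starch-filled plastids and pass the signal on through auxin transport, while its outer and lateral cells are shed or die. NAC transcription factors direct the maturation of these cells, and PLETHORA factors keep the stem cells from which the cap is renewed.

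All values come from 1 library, so cells are not replicates of the line, and no difference was tested. Levels are UMIs per 1000000 UMIs (CPM) summed over all cells of a group, and a log2 ratio is that of YFP-positive over YFP-negative cells after adding 5 CPM to both. A gene is called higher or lower when this ratio is at least 2-fold. Intervals are 95% intervals, exact Poisson for levels and Clopper-Pearson for shares, and both cover counting error only. A summed level does not tell more cells from more transcripts in each cell, and shares of cells are given beside it for that reason. The groups were chosen by the YFP UMIs of each cell, so the values of YFP, and of genes that follow it, are a description.

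The median depth was 14484 UMIs in YFP-positive cells and 15418 UMIs in YFP-negative cells, the median number of detected genes 4249 and 3843, and the median organelle share 2.65% and 2.58%. The mean depths lay further apart, at 23677.5 UMIs in YFP-positive and 43913.7 UMIs in YFP-negative cells. So did the upper quartiles, at 22578 and 43985 UMIs. The groups were thus not matched in depth, and summed levels weigh deep cells most. The sums were 2864973 UMIs in YFP-positive cells and 149086926 UMIs in YFP-negative cells. One YFP-positive cell stood apart with 515073 UMIs, 18.0% of the sum of its group, and it had 1 YFP UMI. The 5 deepest cells held 34.2% of the UMIs of the YFP-positive cells, against 2.31% for the 5 deepest YFP-negative cells. The 2 shares cannot be compared directly, since 5 cells are a larger part of 121 cells than of 3395 cells. Of the 3516 kept barcodes, 23 were also kept in another library, and 1 of these was YFP-positive.

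YFP was present in 3.44% of kept cells (2.86% to 4.10%), and a minority of these cells carried nearly all of it. The 121 cells held 3816 YFP UMIs, with a median of 8 and a maximum of 319 per cell. The 3 cells with most YFP held 22.4% of these UMIs, the top 10 held 47.1%, and 12 cells were enough to reach 50%. There were 58 cells with 10 or more YFP UMIs, and they held 95.4% of the total. Another 32 cells had 2 to 9, and 31 cells had a single YFP UMI, 0.812% of the total. In the plot of YFP against depth, the 10 cells richest in YFP all lie in the root cap marker-rich class.

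**Figure D1:**
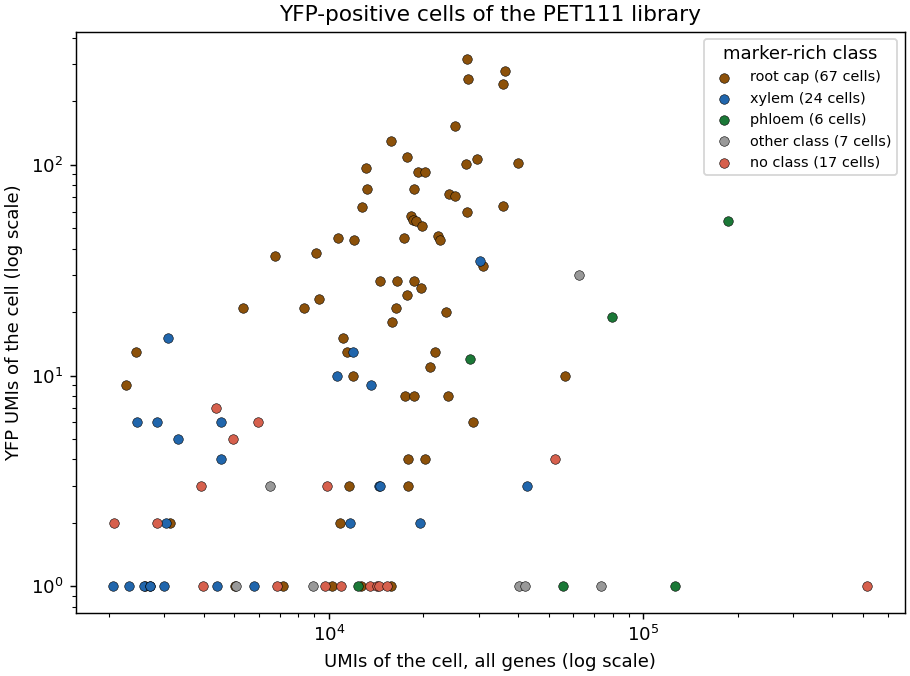
YFP UMIs of each of the 121 YFP-positive cells (vertical, log scale) against all UMIs of that cell (horizontal, log scale), coloured by the marker-rich class of the cell. Cells rich in root cap markers reach 319 YFP UMIs, and the deepest cell, with 515073 UMIs, has 1.

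The cells were sorted by 9 marker lists, holding 76 genes. A cell was called rich in a list when at least 3 of its markers had a UMI and their summed share of the cell was at least 3-fold that of the library. Most YFP-positive cells were rich in root cap markers, 67 of 121 or 55.4%, against 551 of 3395 or 16.2% of YFP-negative cells. Xylem marker-rich cells came second, with 24 YFP-positive cells (19.8%) against 73 YFP-negative cells (2.15%). Phloem marker-rich cells made up 6 YFP-positive cells (4.96%) against 25 YFP-negative cells (0.736%). A further 17 YFP-positive cells (14.0%) and 1976 YFP-negative cells (58.2%) were rich in no list. In the other direction, hair cell, non-hair cell, endodermis and dividing-cell lists together took 7 YFP-positive cells. These were 0.826%, 0.826%, 2.48% and 1.65% of YFP-positive cells, against 4.54%, 5.04%, 6.07% and 5.27% of YFP-negative cells. The cortex list took 0 YFP-positive cells against 57 YFP-negative cells (1.68%), and the stele list 0 against 3 (0.0884%). These classes are too small for a count of 0 to tell the groups apart. More than 1 list was passed by 4 YFP-positive cells (3.31%) and 50 YFP-negative cells (1.47%).

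Read by class, the share of cells with at least 1 YFP UMI was highest in xylem marker-rich cells, and the YFP level was highest in root cap marker-rich cells. The order of the shares depends on the number of UMIs asked for, since 10 or more YFP UMIs were held by 4 of 97 xylem, 3 of 31 phloem and 50 of 618 root cap marker-rich cells. At least 1 UMI was seen in 24.7% of 97 xylem marker-rich cells (16.5% to 34.5%), in 19.4% of 31 phloem marker-rich cells (7.45% to 37.5%) and in 10.8% of 618 root cap marker-rich cells (8.50% to 13.6%). The median depth of these classes was 6585, 84214 and 10036 UMIs. The YFP level was 510 CPM in root cap marker-rich cells (493 to 527), 154 CPM in xylem marker-rich cells (128 to 182) and 18.6 CPM in phloem marker-rich cells (14.9 to 22.9). Without the cell richest in YFP the first of these levels was 466 CPM and the second 117 CPM, each below its interval. The 3 cells richest in YFP held 24.3% of the YFP UMIs of root cap marker-rich cells and 47.7% of those of xylem marker-rich cells. In the phloem marker-rich class, 3 cells held 85 of 88 YFP UMIs. Among 209 endodermis marker-rich cells, 1 cell held 30 of 32, and this cell also had 95 UMIs of root cap markers, against 5577 of endodermis markers. Hair cell marker-rich cells, which were deep at a median of 40813 UMIs, had YFP in 1 of 155 cells (0.645%). In the 57 cortex marker-rich cells YFP was not seen, and a floor of 3 cells puts the share of cells with a YFP UMI at up to 5.26%, which limits detection and not expression.

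**Figure D2:**
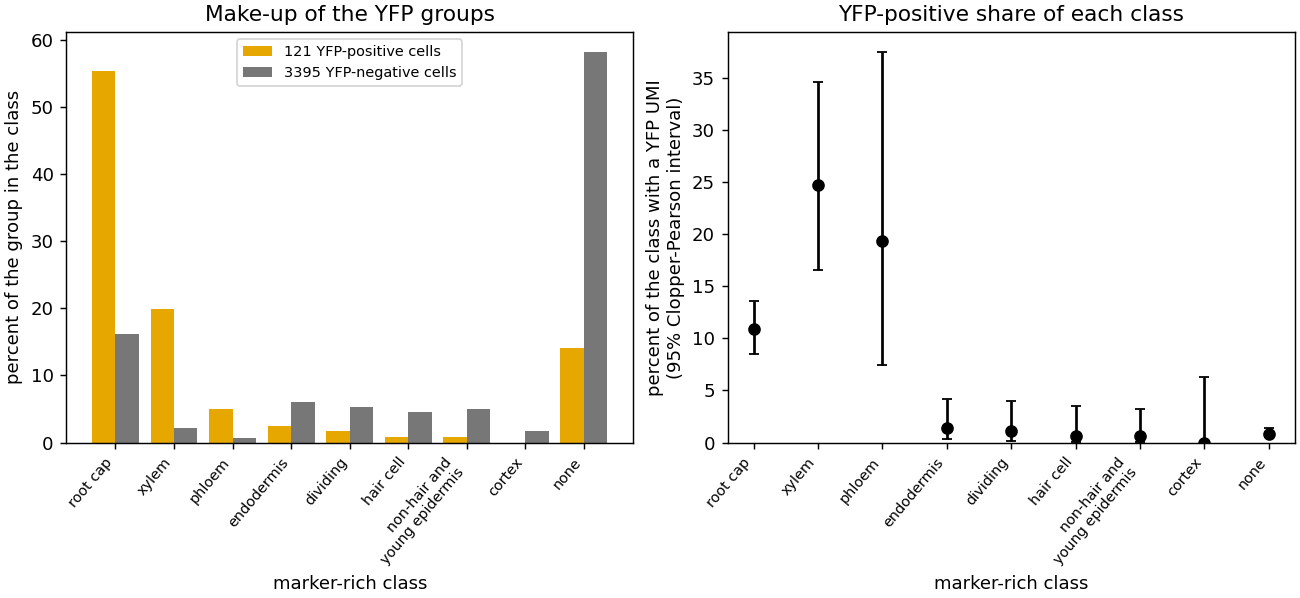
Left, the percentage of the 121 YFP-positive cells and of the 3395 YFP-negative cells in each marker-rich class; right, the percentage of each class with a YFP UMI with its 95% interval. Root cap markers take 55.4% of YFP-positive and 16.2% of YFP-negative cells, while the YFP-positive share is highest in xylem marker-rich cells, at 24.7%; the stele class, with 3 cells, is not drawn.

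The genes that were highest in YFP-positive cells included an actin regulator, growth factor peptides, small signalling polypeptides and many unnamed loci. ADF9 (AT4G34970), an actin depolymerizing factor, led with 1758 CPM in YFP-positive cells (1710 to 1807) against 5.29 CPM in YFP-negative cells (4.93 to 5.67), a log2 ratio of 7.42. RGF2 and RGF3 encode root meristem growth factors, secreted peptides that control the root meristem. RGF2 stood at 651 CPM in YFP-positive cells and 2.02 CPM in YFP-negative cells, and RGF3 at 1095 CPM and 10.7 CPM, log2 ratios of 6.55 and 6.13. ADF9 had a UMI in 33.1% of YFP-positive cells, against 2.15% of YFP-negative cells and 0.645% of hair cell marker-rich cells. With every cell thinned to 2000 UMIs these shares were 28.9% in YFP-positive cells and 0.530% in YFP-negative cells. The genes of highest ratio were seen in a minority of YFP-positive cells, RGF2 in 28.1% of YFP-positive cells and RGF3 in 35.5%, against 1.12% and 3.09% of YFP-negative cells.

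Other genes of the highest 20 were seen in more of the YFP-positive cells, at smaller log2 ratios. RTFL9 (AT1G53708), of the ROTUNDIFOLIA-like family of small polypeptides, had a UMI in 61.2% of YFP-positive cells and 13.6% of YFP-negative cells, at a log2 ratio of 5.47. AT1G10530 (log2 ratio 5.26) and AT5G65300 (5.06) were each seen in 63.6% of YFP-positive cells, against 11.5% and 18.3% of YFP-negative cells. AT2G28870, annotated as a protein like the CDK inhibitor SMR1, was seen in 69 of 121 YFP-positive cells (57.0%) and in 2.71% of YFP-negative cells, at 197 CPM against 1.21 CPM and a log2 ratio of 5.03. In the 155 hair cell marker-rich cells it had no UMI, and the same floor puts the share of cells with a UMI at up to 1.94%. AT1G19115, which the annotation leaves uncharacterized, was seen in 54.5% of YFP-positive cells and 3.42% of YFP-negative cells, at a log2 ratio of 4.84. The remaining genes of the highest 20 included AT1G50060, of the CAP family of cysteine-rich secretory proteins, at 6484 CPM in YFP-positive cells and 194 CPM in YFP-negative cells, and EFE, an enzyme of the last step of ethylene synthesis, at 1136 CPM and 49.4 CPM.

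The genes whose expression followed YFP most closely from cell to cell were partly the same. Over the 3516 cells, all of 1 library, the Pearson correlation of ln(1 + UMIs per 10000) with YFP was 0.66 for AT2G28870 and 0.60 for AT1G19115. It was 0.57 for AT3G52440, a Dof-type zinc finger gene, 0.57 for AT1G72490, which the annotation leaves uncharacterized, and 0.56 for ADF9. AT3G52440 was seen in 42.1% of YFP-positive cells and in 1.38% of YFP-negative cells, at 66.7 CPM against 0.376 CPM.

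The levels of ADF9 and AT2G28870 were higher at each step of YFP. ADF9 stood at 5.29, 27.7, 1459 and 3124 CPM in cells with 0, 1, 2 to 9 and 10 or more YFP UMIs. AT2G28870 stood at 1.21, 7.64, 188 and 340 CPM in the same groups. The root cap NAC factor SMB did not follow this order, at 9.69, 3.82, 86.8 and 77.8 CPM. The cells with 1 and with 2 to 9 YFP UMIs held 1047176 and 403148 UMIs in all. Few SMB UMIs stand behind its levels there, and no order is read from them. The make-up of the groups differed along the same steps. Root cap marker-rich cells were 6 of the 31 cells with 1 YFP UMI, 11 of 32 with 2 to 9 and 50 of 58 with 10 or more. Xylem marker-rich cells were 8, 12 and 4 of these groups, and XCP1, a xylem cysteine protease, stood at 140, 1875 and 220 CPM against 21.8 CPM in YFP-negative cells. The deepest cell is among the 31 and holds 49.2% of their UMIs.

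**Figure D3:**
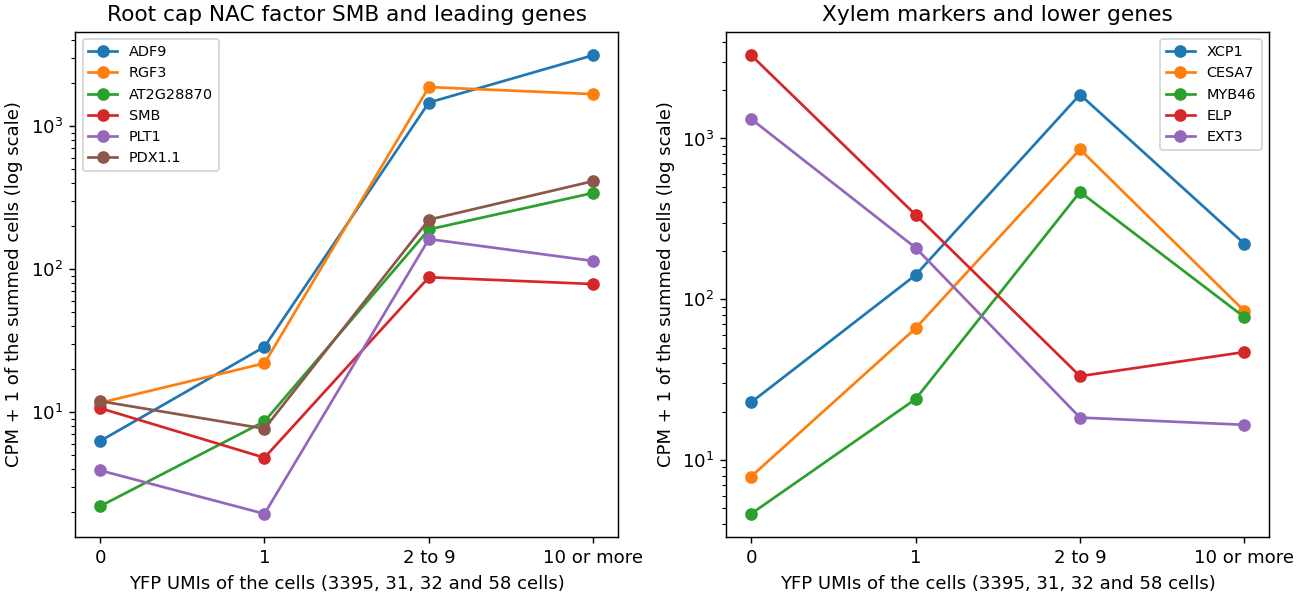
Level of single genes, as CPM + 1 on a log scale, in the summed cells with 0, 1, 2 to 9 and 10 or more YFP UMIs (3395, 31, 32 and 58 cells); left, SMB, PLT1, PDX1.1, AT2G28870, RGF3 and ADF9, right, xylem genes with ELP and EXT3. ADF9 goes through 5.29, 27.7, 1459 and 3124 CPM, while XCP1 peaks in cells with 2 to 9 YFP UMIs at 1875 CPM.

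Across the 18874 genes that were detected in 1% or more of these cells, 1710 were called higher in YFP-positive cells (9.06%) and 752 lower (3.98%), at a median log2 ratio of 0.07. When the 3 cells with most UMIs of a gene were left out of each group, gene by gene, 1039 of the 1710 (5.5% of genes tested) were still called higher and 671 (39.2% of the higher genes) were not. Of the 752 lower genes, 744 (3.94% of genes tested) were still called and 8 were not. With 121 YFP-positive and 3395 YFP-negative cells, leaving out 3 of each weighs mainly on the YFP-positive level and so moves ratios downward, and the 2 directions cannot be compared by it. For 504 of the higher genes (29.5%), 3 cells held at least 50% of the UMIs of the YFP-positive group, and 182 had UMIs in fewer than 10 YFP-positive cells. Calls toward higher made up 69.5% of all calls. This split depended on the weight of the cells, mainly through the lower calls. With every cell thinned to 2000 UMIs, 2151 genes were higher and 2157 lower (49.9% higher), and with each cell weighing the same 1540 were higher and 1400 lower (52.4%). Counted afresh without the 3 richest cells of each gene, 1083 were higher and 2059 lower (34.5%), a setting that by its construction favours lower calls.

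For the 5 genes named as decided by few cells, these were phloem marker-rich cells. SIAR1 (AT1G44800), a transporter gene of the EamA-like family, had a log2 ratio of 3.26 with all cells and of -0.69 without its 3 richest cells, which held 98.8% of its UMIs. CLE5, a signalling peptide gene, gave 2.89 and -0.20, and all of its 122 UMIs lay in 3 cells. AT3G11930, AT1G54575 and AT1G13670 likewise had log2 ratios of 3.11, 3.04 and 2.96, against 0.88, 0.36 and 0.79 without 3 cells. In each of these 5 genes the 3 richest cells were all phloem marker-rich. A single cell with 186731 UMIs and 54 YFP UMIs held 86.7% of the SIAR1 UMIs and 85.2% of the CLE5 UMIs of the YFP-positive group. The same class also held most UMIs of AT3G59370 and AT5G04080, which are among the highest 20. AT3G59370, annotated as like a vacuolar calcium-binding protein, had 82.2% of its UMIs in 3 phloem marker-rich cells and a log2 ratio of 4.83, or 3.01 without them. AT5G04080 had 72.8% there, with 4.29 and 3.02. In root cap marker-rich YFP-positive cells alone, set against all YFP-negative cells, AT3G59370 had -2.91 and AT5G04080 had -0.76.

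**Figure D4:**
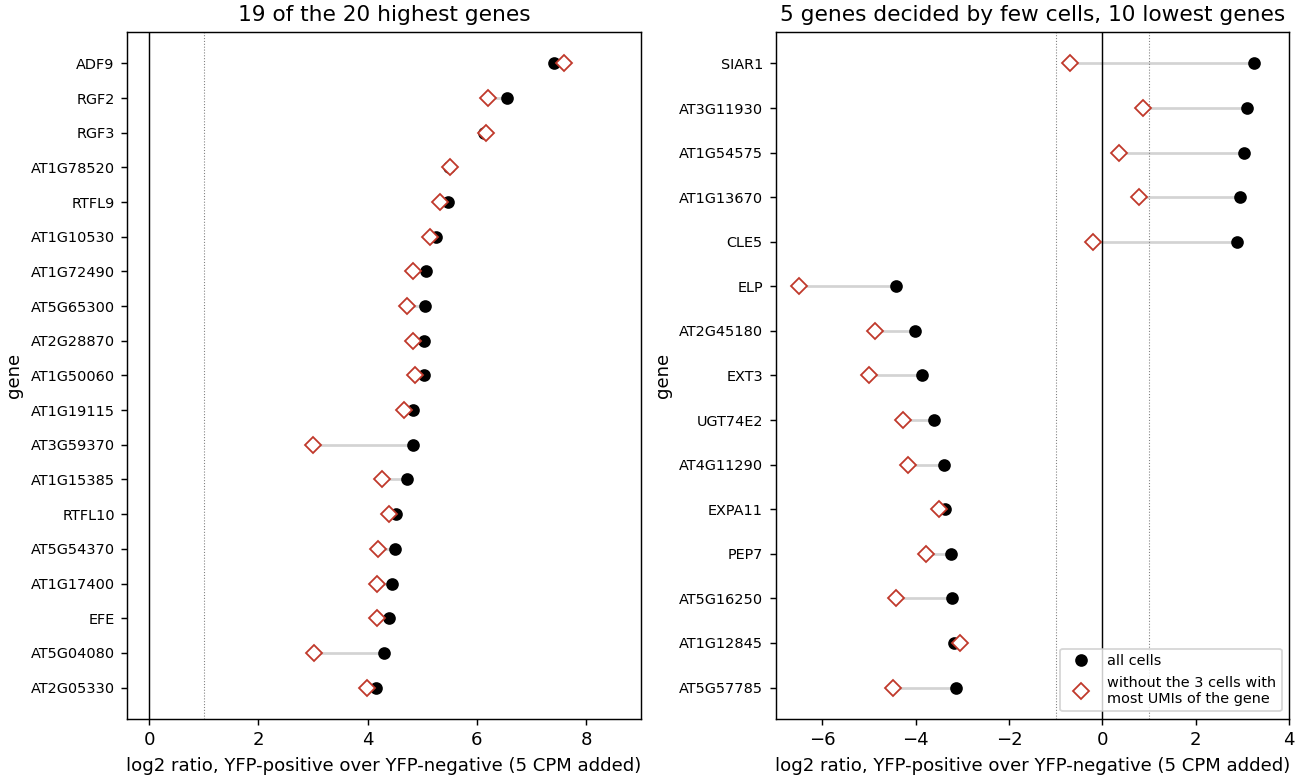
Log2 ratio of YFP-positive over YFP-negative cells, with 5 CPM added, for 19 of the 20 highest genes (left) and for 5 genes decided by few cells and the 10 lowest genes (right); filled circles use all cells, open diamonds leave out the 3 cells with most UMIs of the gene in each group. ADF9 has 7.42 with all cells and 7.60 without 3 cells, AT3G59370 has 4.83 and 3.01, and SIAR1 crosses 0 between 3.26 and -0.69.

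Of the lowest genes, ELP, an extensin-like protein gene, stood at 149 CPM in YFP-positive cells and 3296 CPM in YFP-negative cells, a log2 ratio of -4.42. EXT3, an extensin that crosslinks into the cell wall, stood at 86.2 CPM and 1322 CPM, a log2 ratio of -3.86, and was seen in 30.6% of YFP-positive and 62.8% of YFP-negative cells. In hair cell marker-rich cells EXT3 was seen in 94.2%. AT2G45180, of the lipid-transfer protein family, had a log2 ratio of -4.02, UGT74E2, a glycosyltransferase, -3.60, the wall-loosening expansin EXPA11 -3.37 and PEP7, the precursor of an elicitor peptide, -3.23. What YFP-positive cells did have of ELP was again in few cells, since 3 of them held 81.1% of its UMIs. Without the 3 richest cells of each group ELP had a log2 ratio of -6.50. The genes differed in this, with EXT3 at -5.00 and EXPA11 at -3.49 in the same setting. AT1G12845 had 0 UMIs in YFP-positive cells and 40.2 CPM in YFP-negative cells, at least 38.4-fold lower at a floor of 3 UMIs over the group.

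In a list of 6 root cap identity genes, 5 passed the filter on low values and all 5 were called higher, with a median log2 ratio of 2.04, against 0.07 over all genes and 9.06% called. With each cell weighing the same 3 of the 5 were called higher (median 1.11), and with cells thinned to 2000 UMIs 2 of the 5 (median 0.89). The lowest log2 ratio over the alternatives run on the lists was 0.89 for BRN1 and 0.08 for BRN2. BRN1, a NAC factor of root cap maturation, stood at 323 CPM in YFP-positive cells and 35.7 CPM in YFP-negative cells, and SMB, another, at 52.0 and 9.69 CPM, log2 ratios of 3.01 and 1.96. FEZ, the NAC factor of root cap stem cells, stood at 31.1 CPM and 1.34 CPM, a log2 ratio of 2.51. These genes are also among the markers that name the root cap class. FEZ differed from SMB and BRN1 within that class. It was seen in 40.3% of its YFP-positive and 3.27% of its YFP-negative cells, at a log2 ratio of 2.48, while BRN1 was seen in 55.2% and 95.3% and SMB in 73.1% and 68.6%, with log2 ratios of 0.16 and -0.11. Of 4 tested stem cell niche genes, 3 were called higher, at a median of 2.13. PLT1 and PLT3 had log2 ratios of 3.40 and 2.05, and PLT2 stood at 29.3 CPM in YFP-positive and 2.48 CPM in YFP-negative cells. Their relative BBM had 0.14. WOX5, a factor of the quiescent centre, did not pass the filter, with 0 UMIs in YFP-positive cells and 23 in the far larger YFP-negative group. These are too few to tell the groups apart.

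Genes used for starch and for auxin transport were higher in part. Of 30 starch genes, 27 passed the filter, 14 were called higher and 0 lower, at a median log2 ratio of 1.05. Those called higher include steps of synthesis and breakdown alike. PHS2, a starch phosphorylase of the cytosol, stood at 107 CPM in YFP-positive and 10.5 CPM in YFP-negative cells, and GWD1, which phosphorylates starch before its breakdown, at 124 and 13.5 CPM, log2 ratios of 2.85 and 2.80. The beta-amylase BAM1 had 2.69. APL4, a large subunit of ADP-glucose pyrophosphorylase, had 2.59, at 27.2 CPM in YFP-positive and 0.335 CPM in YFP-negative cells, and ADG1, the small subunit, had 1.85. Other large subunits were not called, at -0.53 for APL1, 0.53 for APL2 and -0.21 for APL3. Without the 3 cells with most UMIs of each gene, 11 starch genes were higher and 1 was lower.

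Of 12 auxin transport genes, 6 were called higher and 0 lower, at a median log2 ratio of 0.96. Without the 3 cells with most UMIs of each gene, 4 were higher and 1 lower (median 0.47), and with cells thinned to 2000 UMIs also 4 and 1 (0.48). The efflux carriers PIN3, PIN4 and PIN7, which act in the columella, had log2 ratios of 2.34, 2.52 and 2.60, with a UMI in 24.0%, 36.4% and 27.3% of YFP-positive cells, against 6.42%, 15.2% and 6.66% of YFP-negative cells. PIN2, which carries auxin in the lateral root cap and epidermis, had -0.04. The influx carrier LAX3 had a log2 ratio of 2.73, but 86.7% of its UMIs lay in 3 phloem marker-rich cells and it had 0.41 without them, and -2.00 with root cap marker-rich cells alone as the YFP-positive group. LAX2 and ABCB19, with log2 ratios of 1.18 and 1.13, had 0.71 and 0.53 without their 3 richest cells. AUX1, the influx carrier of the root tip, was not called, at 0.79.

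A gravity list of LAZY, ARG1 and RLD genes was led by 3 loci listed as LAZY genes, which the annotation leaves uncharacterized. Of its 12 loci, 10 passed the filter, 3 were called higher and 1 lower, at a median log2 ratio of 0.88, and after thinning 5 and 1, at 1.22. AT1G72490, AT1G19115 and AT1G17400 had log2 ratios of 5.06, 4.84 and 4.45 and are markers of the root cap class as well. AT3G24750 had -1.93. ARG1, a protein needed for gravity response in roots, was not called, at 34.2 CPM in YFP-positive cells and 29.3 CPM in YFP-negative cells.

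The actin, cell cycle, vitamin B6 and peroxisome families were each led by 1 member. Among 9 actin depolymerizing factors, ADF9, ADF5 (log2 ratio 3.32), ADF6 (1.66) and ADF4 were called higher and ADF8 (-1.99) and ADF11 (-2.37) lower, at a median of 0.31. Among 17 CDK inhibitors, which brake the cell cycle, 6 were called higher and 1 lower, at a median of 0.34. AT2G28870 led them, AT3G27630 followed with 2.90 and ICK5 with 2.08, and LGO was lower at -2.81. Of 4 vitamin B6 synthesis genes, PDX1.1 had a log2 ratio of 3.92 and was seen in 60.3% of YFP-positive and 11.9% of YFP-negative cells. PDX1.2 was called at 1.05, while PDX1.3 had 0.29 and PDX2 had 0.76. Of 4 peroxisome division genes, PEX11D had 45.4 CPM in YFP-positive and 1.16 CPM in YFP-negative cells, a log2 ratio of 3.03, and the other members had 0.24 to 0.58.

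Heat shock and immune genes differed in opposite directions. Of 10 heat shock genes, 9 were called higher and 0 lower, at a median log2 ratio of 1.57, with HSP101 at 93.9 CPM in YFP-positive and 10.5 CPM in YFP-negative cells. Of the 10 genes, 5 were higher without the 3 cells with most UMIs of each gene, 5 without the 5 YFP-positive cells richest in the list, and 5 with cells thinned to 2000 UMIs. Of 8 immune genes, 0 were called higher and 6 lower, at a median of -1.60. PBS3, of salicylic acid synthesis, and PUB54 had 0 UMIs in YFP-positive cells, against 13.7 and 12.9 CPM in YFP-negative cells, at least 13.1-fold and 12.3-fold lower at a floor of 3 UMIs over the group. CBP60G, a transcription factor of immunity, stood at 5.24 CPM in YFP-positive and 27.8 CPM in YFP-negative cells.

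**Figure D5:**
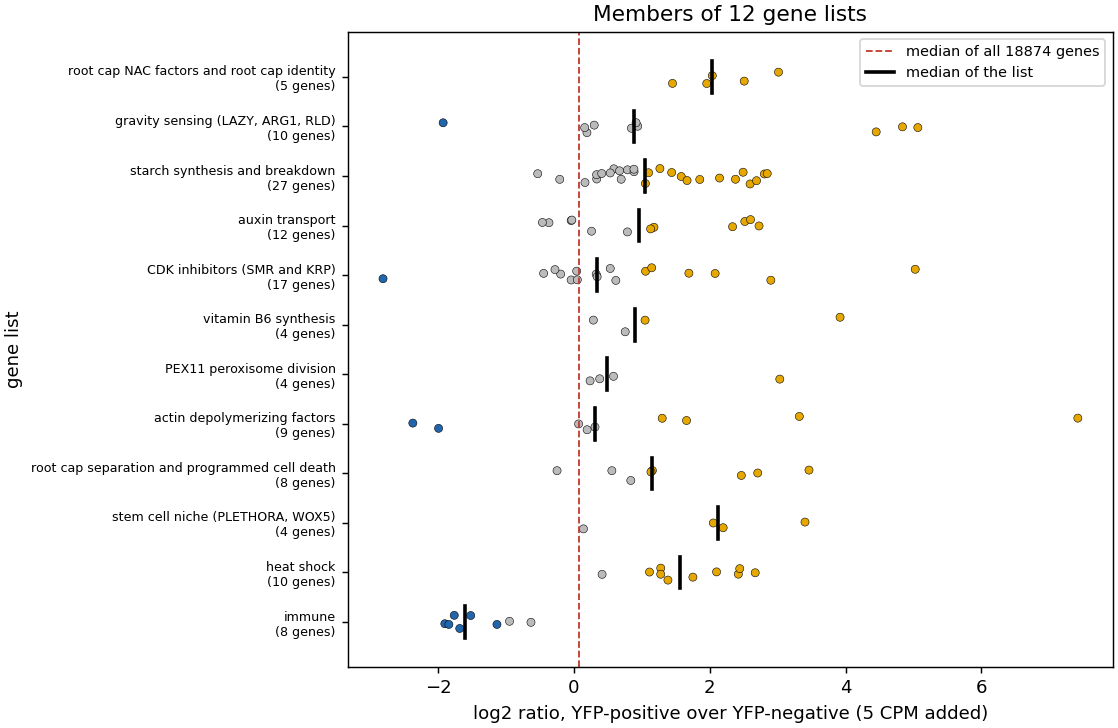
Log2 ratio of YFP-positive over YFP-negative cells, with 5 CPM added, for each gene of 12 lists that passed the filter on low values (points; orange at least 2-fold higher, blue at least 2-fold lower, grey neither), with the median of each list (bar) and of all genes (dashed line, 0.07). The list medians run between -1.60 for immune genes and 2.13 for the stem cell niche genes.

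Markers of xylem were called higher in the YFP-positive group, and their UMIs lay mainly in other cells than those of the root cap genes. Of 15 xylem markers that passed the filter, 14 were called higher and 0 lower, at a median log2 ratio of 3.26. CESA8 of the secondary wall cellulose synthase stood at 234 CPM in YFP-positive and 8.83 CPM in YFP-negative cells, and MYB46, a switch of secondary wall formation, at 111 and 3.63 CPM, log2 ratios of 4.11 and 3.75. Without the 24 xylem marker-rich YFP-positive cells, 0 of the 15 were called higher and 8 lower, which follows from the choice of those cells by these markers and from keeping such cells in the YFP-negative group. ADF9, RGF2 and RGF3 had 0 UMIs in the 24 xylem marker-rich YFP-positive cells. CESA4, MYB46 and XCP1 had 0 UMIs in the 67 root cap marker-rich YFP-positive cells, and CESA7, CESA8 and XCP2 had 1 each. The marker ACL5 went the other way, with 7 UMIs in the root cap marker-rich and 0 in the xylem marker-rich cells. Cells were placed in classes by these markers, so their low counts outside the xylem class are partly built in. AT2G28870 was in both, with a UMI in 56 of 67 root cap marker-rich and 9 of 24 xylem marker-rich YFP-positive cells, at 427 and 114 CPM. AT3G27630, another CDK inhibitor of the list, stood at 51.3 and 439 CPM.

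Phloem markers gave 5 of 5 tested genes higher, at a median log2 ratio of 1.90, and 0 without the 5 YFP-positive cells richest in the list. Of 8 hair cell markers, 0 were called higher and 7 lower, at a median of -1.54. Of 4 non-hair cell markers 0 were called, of 10 dividing-cell markers 1 was called lower and 9 neither, and of 3 stele markers 1 was called higher and 1 lower. Over all genes tested, 9.06% were called higher and 3.98% lower. Calls of 0 or 1 in lists this short do not differ clearly from these shares. In YFP-positive cells, 3 cells held 87.5% of the non-hair and 58.6% of the dividing-cell marker UMIs. Without the 3 richest cells of each gene, 3 of the 4 non-hair and 8 of the 10 dividing-cell markers were lower (medians -1.65 and -1.46), in a setting that favours lower calls. With each cell weighing the same, 3 and 1 were lower. The summed endodermis markers were level, at 2089 CPM in YFP-positive and 2095 CPM in YFP-negative cells, with 3 cells holding 96.6% of the UMIs in YFP-positive cells. Without the 3 cells with most UMIs of each gene, 9 of the 9 endodermis markers were lower, at a median of -4.01. The part of these few cells in the counts of higher genes other than those named above was not tested.

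Genes of root cap separation and developmental cell death split by class in part. Of 8 tested, 5 were called higher and 0 lower over all cells, at a median log2 ratio of 1.15. CEL5, a cellulase of root cap shedding, stood at 386 CPM in YFP-positive and 30.5 CPM in YFP-negative cells, a log2 ratio of 3.46. The aspartyl protease gene AT4G04460 (2.47), the nuclease gene BFN1 (1.16) and the metacaspase gene MC9 (1.13) were not called without the xylem marker-rich YFP-positive cells, at -0.76, -0.47 and -0.88. The remaining gene called higher, scpl48 (2.71), was still called without those cells, at 2.04, as was CEL5, at 3.57. Within root cap marker-rich cells, 0 of the 8 were called higher and 5 lower, at a median of -2.12. There the ribonuclease gene RNS3 stood at 5.70 CPM in YFP-positive and 239 CPM in YFP-negative cells, and AT4G04460 at 2.44 and 48.3 CPM.

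Inside the root cap marker-rich class, its 67 YFP-positive cells differed from its 551 YFP-negative cells in 1732 genes called higher (9.18%) and 1411 called lower (7.48%). Of these, 1042 and 1332 were also called without the 3 cells richest in the gene. The YFP-positive cells were the deeper ones, at a median of 17837 UMIs against 9666 UMIs. ADF9 led again, at 4042 CPM in YFP-positive and 116 CPM in YFP-negative cells, followed by RGF2 at 1489 and 42.5 CPM and AT1G72490 at 453 and 13.6 CPM, log2 ratios of 5.06, 4.97 and 4.62. AT2G28870 was seen in 83.6% of the YFP-positive and 7.44% of the YFP-negative cells. PDLP7, a protein of plasmodesmata, the heat shock factor HSFA6B and the dehydrin ERD10 came into the highest 12, with log2 ratios of 4.49, 4.36 and 4.27. The columella carriers PIN4, PIN7 and PIN3 had log2 ratios of 3.97, 3.57 and 3.01 there, PLT1 had 3.25 and PDX1.1 had 3.11. The starch list gave 16 of 27 genes higher and 1 lower.

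AT1G06090, of the fatty acid desaturase family, stood at 4.07 CPM in YFP-positive and 701 CPM in YFP-negative cells, and AT4G15160, of the lipid-transfer protein family, at 22.8 and 1937 CPM, log2 ratios of -6.28 and -6.13. CPT, a cis-prenyltransferase gene, had 0 UMIs in YFP-positive cells against 345 CPM in YFP-negative cells, at least 141-fold lower at a floor of 3 UMIs over the group. The lectin gene AT1G52060 was seen in 11.9% of YFP-positive and 78.2% of YFP-negative cells, and sks16 in 5.97% and 62.4%. The pectin lyase-like gene AT1G65570, itself a root cap marker of the list, stood at 16.3 and 662 CPM. The heat shock list gave 0 genes higher and 0 lower here, at a median log2 ratio of 0.07, and the immune list 0 higher and 5 lower, at -3.16. CBP60G stood at 4.07 CPM in YFP-positive and 225 CPM in YFP-negative cells of the class.

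Inside the xylem marker-rich class, 24 YFP-positive and 73 YFP-negative cells left 1096 genes called higher (5.81%) and 2088 lower (11.1%), with few UMIs behind most of them. Of the higher genes, 107 were called with the 3 cells richest in the gene left out as well, and of the lower, 1097. The lowest genes held few or no UMIs in YFP-positive cells, which were also shallower, at a median of 4470.5 UMIs against 7032 UMIs. XTH15 had 0 UMIs against 218, TCH4 0 against 187 and WRKY40 2 against 161, the first 2 being xyloglucan-modifying enzymes and WRKY40 a stress-induced transcription factor.

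AT2G28870, the gene closest to YFP, was also seen in both kinds of cell in the libraries without YFP, in a minority of each. Cells with an AT2G28870 UMI were set against cells without one in the same way. Of the other 19 genes of the highest 20, 15 of 18 tested were called higher in pWER:GFP (5.36% of all genes higher, 4.47% lower), 19 of 19 in pCORTEX:GFP (4.25% and 3.35%) and 13 of 17 in pSCR:GFP (6.49% and 6.72%), at median log2 ratios of 2.95, 3.64 and 2.14. One gene, AT5G04080, was called lower in pWER:GFP and in pSCR:GFP, with log2 ratios of -2.04 and -1.58, and higher in pCORTEX:GFP, with 1.26. ADF9 had log2 ratios of 6.12, 5.69 and 5.97 there. Xylem markers were higher in 12 of 12, 14 of 15 and 13 of 14. In PET111 the same split gave 19 of 19 of these genes higher (5.51% of all genes higher, 6.39% lower), which is no separate support, since the genes were chosen there and 69 of the 161 cells with the gene are YFP-positive. Cells with the gene were deeper in pWER:GFP, at a median of 27118 UMIs against 10508 UMIs, and in pSCR:GFP, at 23386 against 9316 UMIs, and less so in pCORTEX:GFP, at 16558 against 14016 UMIs. AT2G28870 was seen in a larger share of xylem marker-rich than of root cap marker-rich cells in each library, 29.9% and 10.1% in pWER:GFP, 47.1% and 20.9% in pCORTEX:GFP, 28.9% and 15.7% in PET111, and 33.1% and 9.09% in pSCR:GFP. The cells with the gene numbered 149 in pWER:GFP, 478 in pCORTEX:GFP and 152 in pSCR:GFP. Of these, 48, 261 and 42 were root cap marker-rich and 32, 88 and 42 xylem marker-rich. The others were in neither class.

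The genes on either side of AT2G28870 in the RefSeq order were mostly called neither higher nor lower. Of the 10 genes on each side, 14 passed the filter, 2 were called higher, 1 lower and 11 neither. Over all genes tested, 9.06% were called higher and 3.98% lower, and 14 genes are too few to differ clearly from these shares. OEP16-1, a gene of the plastid outer envelope 3 places away, stood at 202 CPM in YFP-positive and 8.20 CPM in YFP-negative cells, a log2 ratio of 3.97, and had a correlation of 0.44 with YFP. The other, AT2G28810, had 1.58, and 0.63 without its 3 richest cells. The files do not place the insertion of PET111, and whether it lies near AT2G28870 was not tested.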

How the data were processed

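The authors deposited a table of raw counts per gene and cell barcode for each of 4 libraries, with no normalization, made from 10x Genomics Chromium libraries that read the 3′ ends of transcripts, per the labels' protocols. Cell Ranger 7.1.0 and Seurat are named in the submitters' processing notes; neither build nor annotation, nor how barcodes were called cells, is stated: these are not given in the sources used here, so no coordinates or sequences are printed. The tables hold no columns of other samples.

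Counts were summed over YFP-positive and YFP-negative cells with Python 3.11.15, numpy and scipy. Organelle genes and the YFP row were left out of the gene tests. The 4 libraries held 160953229 to 306361336 UMIs. Gene names came from RefSeq, assembly TAIR10.1, which matched 32548 of 32834 rows. The text names YFP, the 20 highest and 10 lowest genes whose ratio stays past 2-fold without the 3 richest cells, 5 that do not, the 5 most correlated with YFP, and members of 12 lists. Some genes that this rule names are not reported here. Genes named within a class, as neighbours or as unlisted markers were chosen after their values were seen, as was the rule for marker-rich cells. The members and lists were chosen with earlier results of these data known. No doublet caller was run. The 1% deepest cells were left out as an alternative. The summing step was tested on simulated data.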

Additional observations from a re-analysis of the deposited data

Results flagged for a closer look

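YFP was also present in barcodes that the filter left out. Of 3441 barcodes with fewer than 2000 UMIs and an organelle share within the limit, 18 had a YFP UMI, or 0.523% (0.310% to 0.825%), with 26 YFP UMIs in all, or 6.49 CPM, and at most 6 in a barcode. Of 2788 barcodes over the organelle limit, 45 had one, or 1.61% (1.18% to 2.15%), with 224 YFP UMIs, or 28.1 CPM, and at most 75 in a barcode. The median depths of these barcodes were 1137 and 1815 UMIs.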

How the results depend on the processing

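The share of YFP-positive cells was 3.44%. It was 2.31% with a minimum of 1000 UMIs, 2.58% for 2 or more and 1.68% for 10 or more YFP UMIs, 2.47% with cells thinned to 2000 UMIs, 2.78% without YFP-positive cells rich in xylem markers and 1.94% counting only those rich in root cap markers. The count of higher genes, 1710, was 2708 with 1 CPM added, 816 with 20 CPM added and 1083 without the 3 richest cells of each gene. The count of lower genes, 752, was 1567, 274 and 2059 under these, 1515 and 1681 for 2 or more and 10 or more YFP UMIs, 1400 with each cell weighing the same, 2157 after thinning and 2264 with root cap marker-rich YFP-positive cells only. Calls toward higher made up 69.5% of calls, and between 34.5% and 74.9% under the alternatives; scaling by the median of ratios gave 60.9%, a shift of 0.18 on the log2 scale. Without the deepest YFP-positive cell, 2183 genes were higher, 1707 of the 1710 among them, and 1123 were lower, 654 of the 752 among them. This alternative and both that select by class were chosen after seeing the data.

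Of 380 values of the 20 highest genes under the alternatives, 378 stayed past 2-fold. Part of this count was fixed in advance, since the genes were chosen to stay past 2-fold without their 3 richest cells. A change of the gene filter also leaves the ratio of each gene as it was. The log2 ratio reversed for AT3G59370 (-2.91) and AT5G04080 (-0.76) with root cap marker-rich YFP-positive cells only. Under that setting SIAR1 had -1.08, AT3G11930 -1.30, AT1G54575 -0.51, AT1G13670 -1.62 and CLE5 -0.36. SIAR1 reversed to -0.28 with each cell weighing the same and to -0.69 without its 3 richest cells, and CLE5 to -0.64 after thinning and to -0.20 without 3 cells. The cells that hold these genes are the phloem marker-rich ones, which that selection leaves out. Of 190 values of the 10 lowest genes, 188 stayed past 2-fold, a count fixed in part in the same way. No paired analysis was possible because each line has 1 library and both groups of cells come from the same one. Depth limits the genes seen in few YFP-positive cells.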
